A study of Mus musculus with 20 samples.

Results

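Genes that mark the growing hair follicle, 10 in all, were followed across skin of high-fat-fed and chow-fed mice that had received imiquimod or vehicle cream. They comprise the Hedgehog genes Shh, Gli1 and Ptch1, the WNT ligand genes Wnt10b and Wnt5a, the WNT effector gene Lef1, and the transcription factor genes Msx2, Foxn1, Hoxc13 and Dlx3. The genes were chosen by name, 10 of the 22180 genes tested, with earlier results of these data known. Counts set beside the share over all genes are therefore descriptions, not independent evidence. Each gene was represented by the array feature that carried its symbol alone, of which every one of the 10 had exactly 1. All 20 mice were of C57/B6 strain background and 9 weeks old, and all received cream on the shaved abdomen each day for 5 days, with abdominal skin collected 24 h afterwards. The HFD-IMQ group ate a high fat diet (HFD) and received 62.5 mg per day of a 5% imiquimod cream (IMQ, Aldara). The HFD-vehicle group ate the same diet and received vehicle. The CD-IMQ group ate control chow (CD) and received IMQ, and the CD-vehicle group ate control chow and received vehicle. Each group held 5 mice, with 1 array per mouse. How long the diets were fed is not stated in the labels, and shaving was common to all groups, so none of the comparisons is with unshaved skin.

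Hair follicles pass through growth (anagen), regression (catagen) and rest (telogen). At the start of anagen, WNT signals acting through beta-catenin and LEF1 activate the hair germ, and Sonic hedgehog from the epithelium, which acts through its receptor PTCH1 and the factor GLI1, drives the downgrowth of the bulb. In the hair matrix above the papilla, factors such as MSX2, DLX3, FOXN1 and HOXC13 are known from mouse mutants to be needed for a normal hair shaft, and they lie upstream of hair keratin genes.

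Values are log2 signals after robust multi-array averaging (RMA), so a difference of 1 is a doubling of signal. Precision is limited by the number of arrays, and levels are compared here within a gene only. The median over all features of an array lay between 2.86 and 3.04, and a signal at or below it is near background. By that measure Shh was near background in 20 of 20 arrays, so its feature gave no measurable level of this anagen signal. Msx2 was at or below the array median in 14 of 20 arrays, Hoxc13 in 6, Foxn1 in 3, Gli1 in 1, and the other members in 0. Basal keratinocyte genes averaged between 5.71 and 6.73 and fibroblast genes between 8.77 and 9.74 per array, as belongs to skin. Skeletal muscle genes averaged between 6.16 and 8.59, and mammary epithelial genes between 2.89 and 3.30, near background. Within the groups, HFD-vehicle 3 stood apart, with 42.8% of the squared distances to the mean summed over the 5 arrays of that group. HFD-IMQ 4 held 30.0% and CD-vehicle 3 held 28.4% in their groups. Values for members and lists without HFD-vehicle 3 or CD-vehicle 3 are given where the text turns on them. In bulk skin, fewer follicle cells and less RNA per follicle cell cannot be told apart.

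In HFD-fed mice 6 of the 10 genes were lower after IMQ and 0 were higher, by limma with a Benjamini-Hochberg adjusted p below 0.05 over all genes tested. Over all 22180 genes 2.24% were called lower and 3.65% higher in that comparison, 5.89% in all. The genes were Dlx3, Lef1, Msx2, Hoxc13, Ptch1 and Wnt5a, which were between 1.60-fold and 3.25-fold lower. Without HFD-vehicle 3, 5 of them were called lower, all but Ptch1. The median change of the 10 genes was -0.78 on the log2 scale, against 0.00 for all genes. In CD-fed mice 0 of the 10 genes were called after IMQ, where 10.9% of all genes were called in either direction, 3.91% higher and 7.02% lower. By unadjusted p below 0.05 it was 2 of 10, Shh and Wnt5a, against 23.6% of all genes. The median change of the 10 was -0.17 in CD-fed mice, against 0.02 for all genes.

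Between diets, 4 of the 10 genes, Dlx3, Lef1, Msx2 and Hoxc13, were higher in HFD-vehicle than in CD-vehicle skin and 0 were lower, against 1.22% of all genes called higher and 0.956% called lower. That count depended on single arrays. It was 3 without HFD-vehicle 3, 2 without HFD-vehicle 1, HFD-vehicle 2 or CD-vehicle 4, and 1 without CD-vehicle 3 or CD-vehicle 5, with Hoxc13 called each time. A fit of only these groups called 0 of the 10 (adjusted p between 0.0568 and 0.135 for the same genes). In IMQ-treated skin 0 of the 10 genes were called between diets, as were 0.0% of all genes by limma, with 2289 genes and 1 member, Shh, at an unadjusted p below 0.05. The comparison of IMQ with vehicle in HFD-fed mice and that of HFD with CD in vehicle-treated skin share the 5 HFD-vehicle arrays, so each gene's changes in them are not independent, and they are given side by side.

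**Figure D1:**
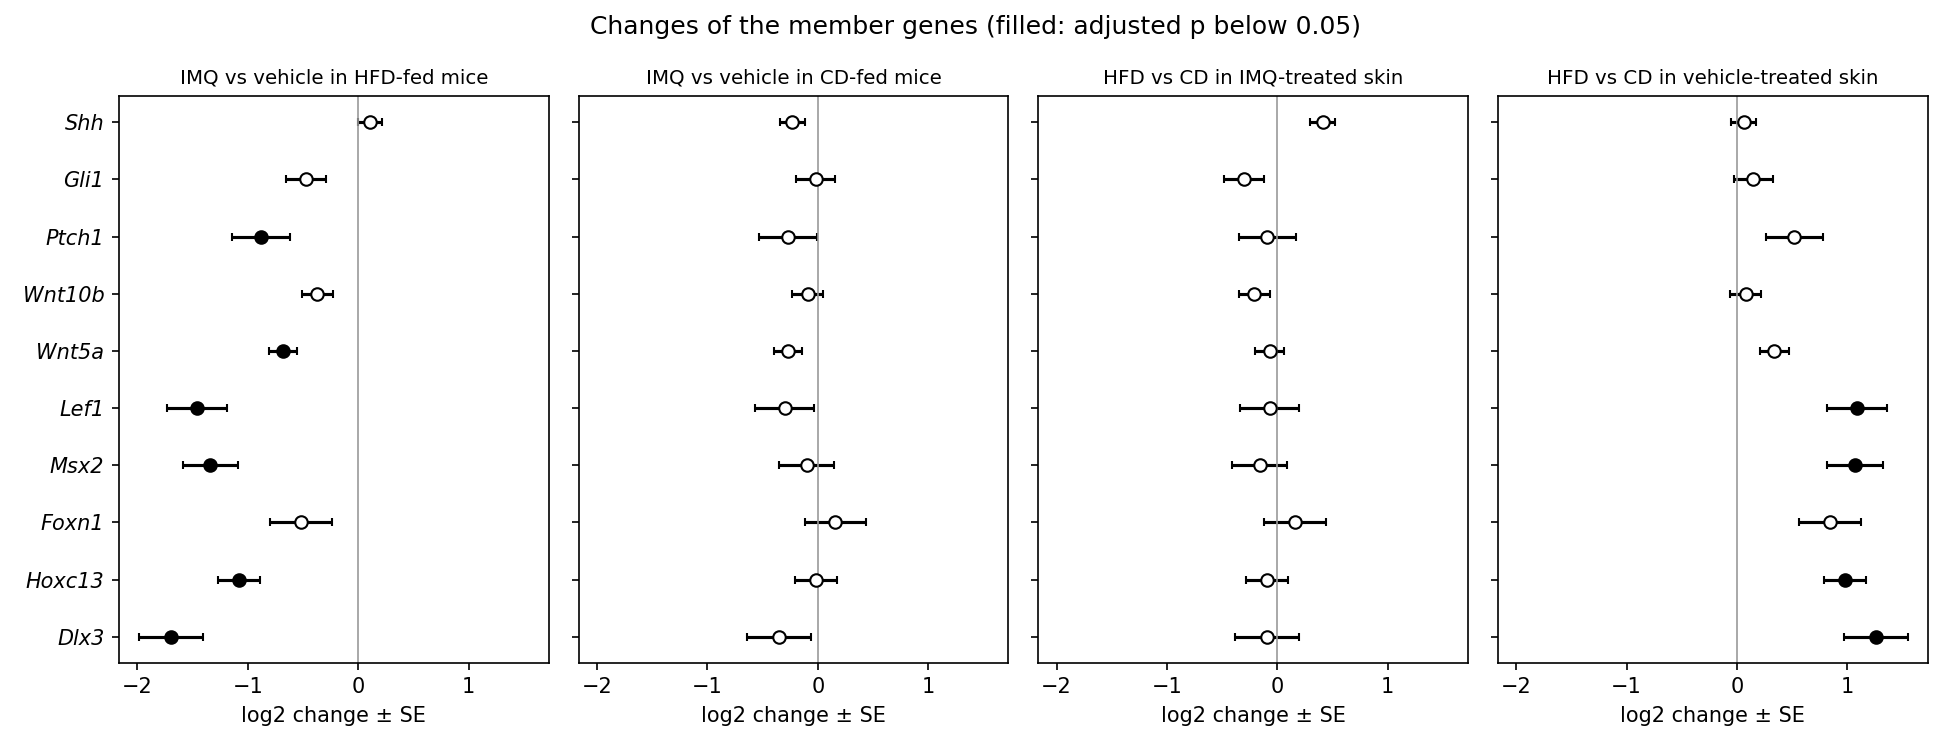
Log2 change with standard error of each of the 10 genes in the 4 comparisons of 5 against 5 arrays; filled points have a limma adjusted p below 0.05. There are 6 filled points for IMQ against vehicle in HFD-fed mice, all left of 0, and 4 for HFD against CD in vehicle-treated skin, all right of 0.

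Shh encodes the secreted Hedgehog ligand. Its log2 values were 2.49, 2.66, 2.95, 2.64 and 2.45 in HFD-IMQ, against 2.57, 2.42, 2.61, 2.58 and 2.46 in HFD-vehicle. They were 2.04, 2.23, 2.16, 2.22 and 2.51 in CD-IMQ, against 2.38, 2.67, 2.35, 2.57 and 2.35 in CD-vehicle. The ranges overlapped in both diets, and every value was at background. The change after IMQ was 0.11 ± 0.11 (SE) in HFD-fed and -0.23 ± 0.11 in CD-fed mice, with adjusted p of 0.71 and 0.202. Between diets in IMQ-treated skin Shh differed by 0.41 ± 0.11, with an adjusted p of 0.27.

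Gli1 encodes the zinc finger factor whose transcript is itself a Hedgehog target. Its values were 3.22, 3.38, 3.25, 3.09 and 2.91 in HFD-IMQ, against 3.58, 3.64, 3.46, 3.46 and 4.06 in HFD-vehicle. Every HFD-IMQ array lay below every HFD-vehicle array, by a mean of -0.47 ± 0.18. The exact permutation test of 5 against 5 arrays gave p = 0.00794, the smallest it can give, while the adjusted p over all genes was 0.137. Gli1 had 3.50, 3.31, 3.59, 3.86 and 3.10 in CD-IMQ, against 3.80, 4.07, 3.07, 3.22 and 3.28 in CD-vehicle. These ranges overlapped almost wholly, with a change of -0.02 and a 95% interval of -0.38 to 0.35.

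Ptch1 encodes the Hedgehog receptor, a second transcript that Hedgehog signalling raises. Its values were 4.12, 4.46, 4.29, 4.14 and 3.28 in HFD-IMQ, against 5.28, 5.08, 4.84, 4.86 and 4.62 in HFD-vehicle. The groups did not overlap, and HFD-IMQ 5 was the lowest array. Ptch1 was 1.84-fold lower after IMQ (-0.88 ± 0.26, adjusted p = 0.0434), close to the threshold, and the call was lost in 15 of 20 fits that left out 1 array (adjusted p 0.00287 to 0.145). Without HFD-vehicle 3 the change was -0.90 (adjusted p = 0.0607), and without HFD-vehicle 3 and CD-vehicle 3 together it was called at the same size (adjusted p = 0.00474). In chow-fed mice Ptch1 had 4.30, 4.17, 4.09, 4.04 and 4.11 in CD-IMQ, against 5.17, 4.60, 3.16, 4.68 and 4.47 in CD-vehicle. All CD-vehicle arrays but the third lay above all CD-IMQ arrays. The change was -0.27 ± 0.26 (adjusted p = 0.576), and it was -0.59 without CD-vehicle 3, with an adjusted p of 0.0577.

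In 7 of the 10 genes, Gli1, Ptch1, Wnt5a, Lef1, Msx2, Hoxc13 and Dlx3, every HFD-IMQ array was below every HFD-vehicle array, where 2.39% of all genes showed that. The plot of values by array shows this as a gap between the left pair of columns in each of those panels.

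**Figure D2:**
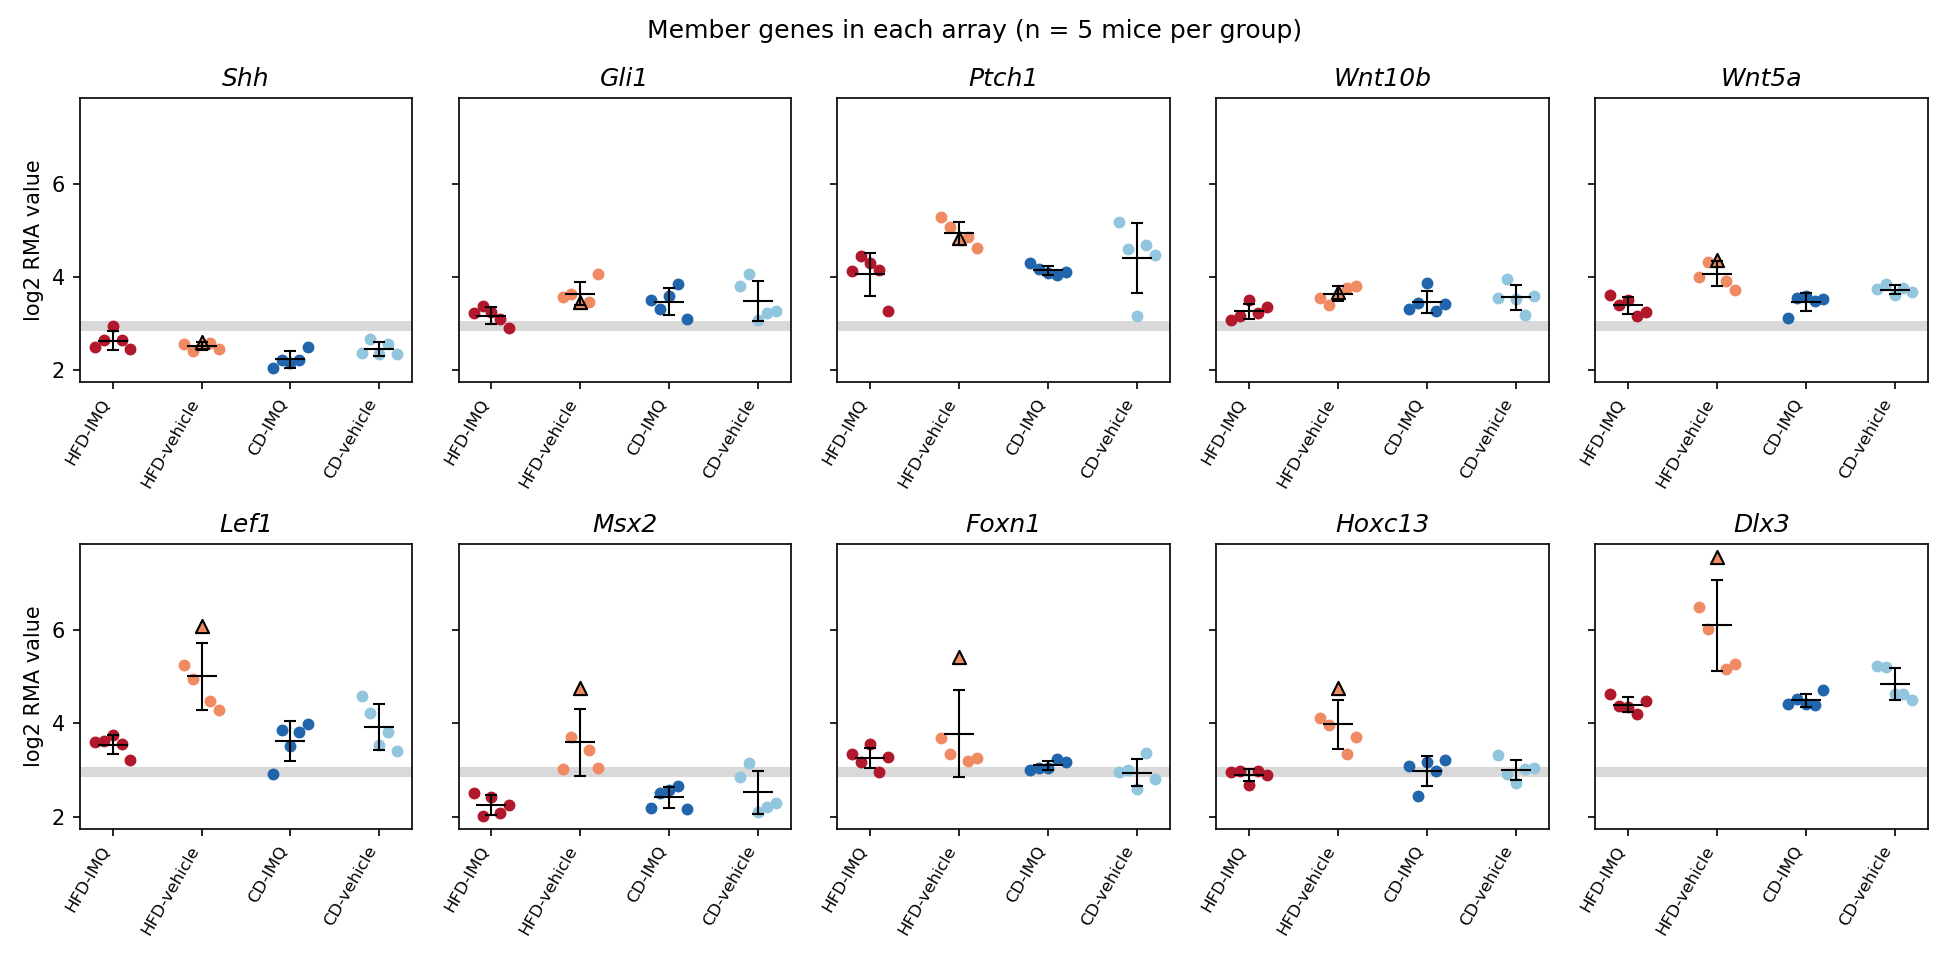
Log2 RMA value of each gene in the 20 arrays, 5 mice per group, with the group mean and standard deviation as a black line and bar. The triangle is HFD-vehicle 3 and the grey band spans the array medians, 2.86 to 3.04. Shh lies below the band in nearly every array. The triangle is the highest point for Wnt5a, Lef1, Msx2, Foxn1, Hoxc13 and Dlx3, but not for Shh, Gli1, Ptch1 or Wnt10b.

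The rest of the Hedgehog pathway had 16 measured genes. In HFD-fed mice 4 were lower and 0 higher after IMQ, with a median change of -0.39. Hhip, which encodes a membrane protein that binds and sequesters Hedgehog ligands and is itself a target of the pathway, averaged 2.75 in HFD-IMQ and 4.11 in HFD-vehicle (-1.36 ± 0.20, adjusted p = 9.41e-05). Its HFD-IMQ mean was near background, so the size of that change is uncertain. The others were Ccnd2 and Ccnd1, which encode cyclins that Hedgehog can raise but that respond to many signals (-1.17 ± 0.17 and -0.85 ± 0.19), and Gli3, which encodes a mainly repressive GLI factor (-0.96 ± 0.15). In CD-fed mice 5 were lower and 0 higher, among them Ccnd2 (-0.91 ± 0.17), Cdon (-0.72 ± 0.17) and Boc (-0.70 ± 0.15), which encode coreceptors, and Gli3 (-0.54 ± 0.15), with a median of -0.07. Fibroblast genes were lower in the same comparisons, 3 of 9 in HFD-fed mice and 6 of 9 in CD-fed mice, with 0 higher. Their average ranged over 8.77 to 9.43 in HFD-IMQ against 9.15 to 9.73 in HFD-vehicle, and over 8.82 to 9.20 in CD-IMQ against 9.29 to 9.74 in CD-vehicle. The part of fibroblast RNA in the changes of the Hedgehog, WNT and other signal genes was not tested. Between diets in vehicle-treated skin Hhip was higher in HFD (0.76 ± 0.20) and Disp1, which encodes a protein for ligand release, was lower (-0.52 ± 0.11). The Hhip call was lost without HFD-vehicle 3 or without CD-vehicle 3, when 0 of the 16 were called higher.

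Wnt10b encodes a WNT ligand of the canonical branch that the hair germ makes at anagen onset. Its values were 3.08, 3.17, 3.50, 3.22 and 3.35 in HFD-IMQ, against 3.54, 3.41, 3.67, 3.76 and 3.80 in HFD-vehicle. They were 3.32, 3.45, 3.88, 3.28 and 3.42 in CD-IMQ, against 3.54, 3.96, 3.53, 3.18 and 3.60 in CD-vehicle. In HFD-fed mice the groups overlapped only through HFD-IMQ 3 and HFD-vehicle 2, and in CD-fed mice they overlapped widely. The change after IMQ was -0.37 ± 0.14 in HFD-fed mice (adjusted p = 0.129) and -0.09 ± 0.14 in CD-fed mice (adjusted p = 0.753).

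Wnt5a encodes a ligand of mainly noncanonical WNT signalling that the dermal papilla expresses and that is a known Hedgehog target in mouse follicles. Its values were 3.62, 3.40, 3.50, 3.17 and 3.26 in HFD-IMQ, against 4.01, 4.32, 4.36, 3.92 and 3.73 in HFD-vehicle. In CD-IMQ they were 3.13, 3.55, 3.60, 3.49 and 3.53, against 3.75, 3.86, 3.61, 3.76 and 3.67 in CD-vehicle. Wnt5a was the 1 gene of the 10 whose groups did not overlap in both diets. Over all genes 2.39% lay wholly lower after IMQ in HFD-fed mice and 5.10% in CD-fed mice, and the share that did in both was not computed. It was 1.60-fold lower in HFD-fed mice (-0.68 ± 0.13, adjusted p = 0.00138). In CD-fed mice the change was -0.27 ± 0.13, and it did not pass over all genes (adjusted p = 0.188, exact permutation p = 0.00794). The change in HFD-fed mice was called in each of the 20 fits that left out 1 array.

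Lef1 encodes the DNA-binding partner of beta-catenin in matrix, precortex and dermal papilla. Its values were 3.59, 3.61, 3.74, 3.56 and 3.22 in HFD-IMQ, against 5.24, 4.94, 6.09, 4.47 and 4.29 in HFD-vehicle. They were 2.92, 3.85, 3.51, 3.81 and 3.99 in CD-IMQ, against 4.59, 4.22, 3.54, 3.81 and 3.41 in CD-vehicle. Every HFD-vehicle array exceeded every HFD-IMQ array, with HFD-vehicle 3 the highest, while the CD groups overlapped. Lef1 averaged 3.54 ± 0.19 in HFD-IMQ and 5.01 ± 0.71 in HFD-vehicle (SD, n = 5 each), a 2.76-fold fall (log2 -1.46 ± 0.27, SE, adjusted p = 0.00138). Without HFD-vehicle 3 the change was -1.19 (adjusted p = 0.00266). In CD-fed mice it was -0.30 ± 0.27, with a 95% interval of -0.86 to 0.26.

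Of 17 further WNT ligand genes, 1 was higher and 0 lower after IMQ in HFD-fed mice, namely Wnt16 (0.71 ± 0.17). Wnt16 averaged 2.85 in HFD-IMQ and 2.14 in HFD-vehicle, both near background, so the size of its change is uncertain. In CD-fed mice Wnt4 was higher (0.83 ± 0.17) and Wnt2 lower (-0.54 ± 0.15). Of 27 WNT receptors and transducers, 8 were lower and 0 higher in HFD-fed mice, with a median of -0.37, and 8 were lower and 0 higher in CD-fed mice, with a median of -0.19. The count in HFD-fed mice was 6 without HFD-vehicle 3. The R-spondin receptor gene Lgr4 (-1.23 ± 0.17), the Frizzled gene Fzd2 (-1.04 ± 0.24), the bulge stem cell gene Lgr5 (-0.99 ± 0.22) and Fzd1 (-0.77 ± 0.15) changed most in HFD-fed mice. In CD-fed mice Fzd4 (-1.09 ± 0.23), Lgr5 (-1.02 ± 0.22), Rspo3 (-0.87 ± 0.17) and Lgr4 (-0.66 ± 0.17) did. These calls in CD-fed skin stand beside 0 of the 10 anagen genes.

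Of 19 WNT inhibitors and feedback genes, 7 were lower and 0 higher after IMQ in HFD-fed mice, or 5 lower without HFD-vehicle 3. Wif1, which encodes a secreted WNT-binding inhibitor made in the dermal papilla, averaged 3.83 in HFD-IMQ and 5.90 in HFD-vehicle (-2.07 ± 0.24, adjusted p = 7.01e-06). It was also lower in CD-fed mice (-0.92 ± 0.24), where 4 of the 19 were lower and 0 higher. Nkd2, which encodes a feedback inhibitor (-1.34 ± 0.24), and the decoy genes Sfrp1 (-0.96 ± 0.21) and Sfrp2 (-0.90 ± 0.18) followed in HFD-fed mice. Activators and inhibitors of WNT signalling were therefore both among the genes that fell. Between diets in vehicle-treated skin Wif1 (1.19 ± 0.24), Sostdc1 (0.91 ± 0.18), which encodes an inhibitor of BMP and WNT signals, and Sfrp1 (0.80 ± 0.21) were higher in HFD, and 2 of the 19 were without HFD-vehicle 3 or without CD-vehicle 3.

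Msx2 encodes a homeodomain factor of the matrix. Its values were 2.51, 2.02, 2.42, 2.07 and 2.25 in HFD-IMQ, against 3.03, 3.70, 4.76, 3.42 and 3.04 in HFD-vehicle. In CD-IMQ they were 2.18, 2.51, 2.57, 2.65 and 2.16, against 2.85, 3.15, 2.09, 2.21 and 2.29 in CD-vehicle. Only the 5 HFD-vehicle arrays and CD-vehicle 2 exceeded their array's median, so in the other groups Msx2 was near background and the size of its change is uncertain. Msx2 was 2.52-fold lower after IMQ in HFD-fed mice (-1.34 ± 0.25, adjusted p = 0.0015). Without HFD-vehicle 3 the change was -1.04 (adjusted p = 0.00163). In CD-fed mice the change was -0.10 ± 0.25 (adjusted p = 0.859).

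Foxn1 encodes the winged-helix factor lost in nude mice, whose hair shafts fail to emerge. Its values were 3.34, 3.18, 3.55, 2.96 and 3.28 in HFD-IMQ, against 3.69, 3.35, 5.41, 3.19 and 3.26 in HFD-vehicle. HFD-vehicle 3 exceeded the next array of its group by 1.72 on the log2 scale, and the other 4 overlapped the HFD-IMQ arrays. The change of -0.52 ± 0.28 after IMQ did not pass (adjusted p = 0.378), and it shrank to -0.11 without HFD-vehicle 3 (adjusted p = 0.809). In chow-fed mice the values were 2.99, 3.04, 3.04, 3.24 and 3.17 in CD-IMQ, against 2.96, 2.99, 2.58, 3.37 and 2.81 in CD-vehicle, a change of 0.16 ± 0.28.

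Hoxc13 encodes a homeodomain factor of matrix and precortex. Its values were 2.95, 2.98, 2.68, 2.97 and 2.89 in HFD-IMQ, against 4.11, 3.96, 4.75, 3.35 and 3.71 in HFD-vehicle. They were 3.09, 2.44, 3.17, 2.98 and 3.22 in CD-IMQ, against 3.31, 2.91, 2.72, 3.01 and 3.05 in CD-vehicle. All 5 HFD-vehicle arrays lay above all 15 others, of which 6 were at or below their array's median. Hoxc13 was 2.12-fold lower after IMQ in HFD-fed mice (-1.08 ± 0.19, adjusted p = 0.00074), and the change was -0.89 without HFD-vehicle 3. In CD-fed mice the change was -0.02, with a 95% interval of -0.41 to 0.37.

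Dlx3 encodes a homeodomain factor of matrix, hair shaft and upper epidermis. Its values were 4.62, 4.36, 4.34, 4.19 and 4.48 in HFD-IMQ, against 6.49, 6.01, 7.56, 5.17 and 5.27 in HFD-vehicle. They were 4.41, 4.51, 4.41, 4.40 and 4.71 in CD-IMQ, against 5.22, 5.20, 4.63, 4.63 and 4.50 in CD-vehicle. The lowest HFD-vehicle array was above every IMQ-treated array, whereas in CD-fed mice CD-IMQ 5 was above CD-vehicle 3, 4 and 5. Dlx3 averaged 4.40 ± 0.16 in HFD-IMQ and 6.10 ± 0.98 in HFD-vehicle (SD, n = 5 each), a 3.25-fold fall (log2 -1.70 ± 0.29, SE, adjusted p = 0.000616). Without HFD-vehicle 3 it was -1.34 (adjusted p = 0.000254). In CD-fed mice the change was -0.35 ± 0.29 (adjusted p = 0.518), with a 95% interval of -0.96 to 0.26.

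Promoters from RefSeq (build GRCm38.p6), running from 250 bases before to 50 bases after an annotated start site, were available for Ptch1, Wnt10b, Lef1, Msx2 and Foxn1. Both strands were searched for CTTTG, the core bound by TCF and LEF factors, ACCACCC, the centre of the GLI site, and TAATTA, a homeodomain core, none of which overlap in these windows. The sequences of Lef1, Ptch1 and Msx2 are shown because these 3 genes were called lower in HFD-IMQ skin, and that of Foxn1 because its change rested on a single array. Each is written along the gene's strand, with matches in capitals (CAAAG is CTTTG read on the other strand), and for Lef1 the first of 4 start sites is given.
Lef1, chr3:131110047-131110346, plus strand: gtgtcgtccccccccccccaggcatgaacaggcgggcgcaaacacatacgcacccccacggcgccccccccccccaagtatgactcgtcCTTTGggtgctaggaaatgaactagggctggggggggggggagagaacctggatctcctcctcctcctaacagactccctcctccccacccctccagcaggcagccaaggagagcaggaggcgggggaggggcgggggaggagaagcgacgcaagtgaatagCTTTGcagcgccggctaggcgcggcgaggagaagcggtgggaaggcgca
Ptch1, chr13:63565686-63565985, minus strand: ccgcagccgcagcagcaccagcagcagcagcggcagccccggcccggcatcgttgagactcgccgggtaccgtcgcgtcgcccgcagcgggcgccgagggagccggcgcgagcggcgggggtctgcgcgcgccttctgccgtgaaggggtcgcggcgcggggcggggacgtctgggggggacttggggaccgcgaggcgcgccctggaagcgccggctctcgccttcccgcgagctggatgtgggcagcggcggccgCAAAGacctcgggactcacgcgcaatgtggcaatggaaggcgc
Msx2, chr13:53472731-53473030, minus strand: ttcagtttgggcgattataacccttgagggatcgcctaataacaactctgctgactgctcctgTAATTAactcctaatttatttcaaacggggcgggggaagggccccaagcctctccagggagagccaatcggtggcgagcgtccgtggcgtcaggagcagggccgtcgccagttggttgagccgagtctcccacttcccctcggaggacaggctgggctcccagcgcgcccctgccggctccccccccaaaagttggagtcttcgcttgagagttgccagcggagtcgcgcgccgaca
Foxn1, chr11:78386559-78386858, minus strand: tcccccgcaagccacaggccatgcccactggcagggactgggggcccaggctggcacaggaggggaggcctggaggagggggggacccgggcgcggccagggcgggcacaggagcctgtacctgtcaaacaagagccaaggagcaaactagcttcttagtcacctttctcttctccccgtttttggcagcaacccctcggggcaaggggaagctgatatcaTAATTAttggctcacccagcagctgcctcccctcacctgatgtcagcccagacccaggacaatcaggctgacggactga
In the Lef1 window CTTTG began at -161 and at 2, counting the first transcribed base as 1. The Lef1 windows not shown held CTTTG as well, and that of start site 3 held ACCACCC on the strand opposite the gene's from -57 to -51. The Ptch1 window held CTTTG on the strand opposite the gene's from 8 to 12. TAATTA lay from -187 to -182 in Msx2 and from -29 to -24 in Foxn1. The Wnt10b window held ACCACCC from 11 to 17 and CTTTG on the strand opposite the gene's from 39 to 43. Among 32851 promoters of this length 53.9% held CTTTG, 4.61% held ACCACCC and 5.29% held TAATTA, so the CTTTG matches are common ones. A match is a string of letters and says nothing about binding.

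Among 36 other transcription factors of the hair follicle, 10 were lower and 2 higher after IMQ in HFD-fed mice, with a median of -0.29, and 8 were lower without HFD-vehicle 3. Vdr, which encodes the vitamin D receptor needed for hair cycling, averaged 4.91 in HFD-IMQ and 6.25 in HFD-vehicle (-1.34 ± 0.24, adjusted p = 0.000941). Sox9 (-1.04 ± 0.26) and Foxc1 (-0.97 ± 0.19), genes of bulge and outer root sheath cells, and Cux1 (-0.86 ± 0.16), a gene of the inner root sheath lineage, were lower as well. In CD-fed mice 2 were lower, Trps1 (-0.73 ± 0.14) and Egr2 (-0.69 ± 0.19), and 1 was higher, Prdm1 (0.71 ± 0.16), a gene also expressed in upper epidermis. Between diets in vehicle-treated skin Vdr (1.30 ± 0.24) and Cux1 (0.66 ± 0.16) were higher in HFD and 0 lower, and 1 of the 36 was higher without HFD-vehicle 3.

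Some genes of the follicle's other signals were called as well, against 2.24% of all genes called lower in HFD-fed and 7.02% in CD-fed mice. Of 21 BMP and activin genes 6 were lower and 0 higher in HFD-fed mice, with a median of -0.36, led by Bmp4 (-1.06 ± 0.21), Id4 (-0.71 ± 0.15) and the receptor genes Bmpr1a (-0.68 ± 0.13) and Bmpr2 (-0.61 ± 0.13). In CD-fed mice 7 were lower and 0 higher, with Bmp4 (-1.12 ± 0.21) and Id3 (-1.05 ± 0.19) foremost. Of 25 FGF, EDA and Notch genes 7 were lower and 0 higher in HFD-fed mice, among them Fgfr2 (-0.81 ± 0.23) and Tnfrsf19 (-0.77 ± 0.14), and 5 were lower and 1 higher in CD-fed mice. The FGF, EDA and Notch count in HFD-fed mice was 5 without HFD-vehicle 3. Of 22 dermal papilla genes 8 were lower and 0 higher in HFD-fed mice. Of these, Lef1, Wif1, Hhip, Bmp4, Rspo3 and Fgf7 are also counted above, and Vcan and Cntfr are not. In CD-fed mice 5 were lower and 2 higher, namely Crabp1 and Crabp2, and without CD-vehicle 3 the counts were 6 lower and 0 higher. Without HFD-vehicle 3, 7 were lower and 1 higher in HFD-fed mice. The fibroblast genes given above were lower in the same comparisons, and their part in these counts was not tested.

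**Figure D3:**
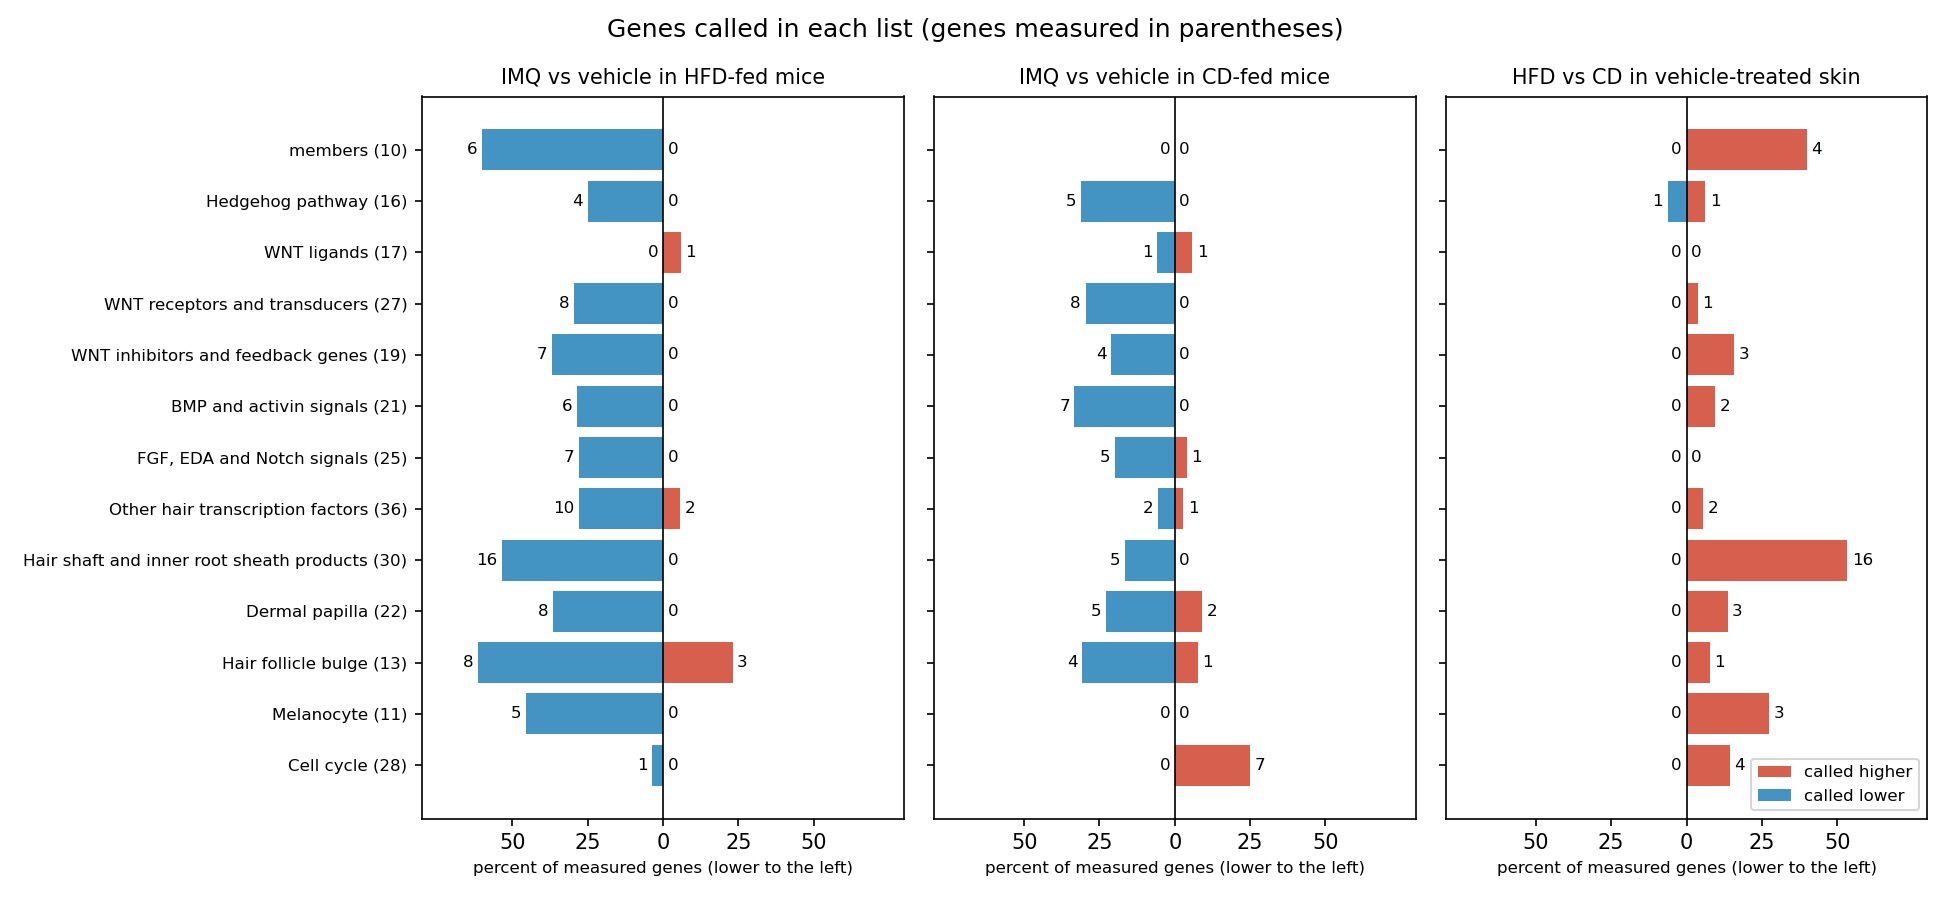
Percent of the measured genes of each list called higher (right of 0) or lower (left of 0) by limma at an adjusted p below 0.05, with the number of genes called at each bar; lists share some genes. For IMQ against vehicle in HFD-fed mice 6 of the 10 members and 16 of 30 hair products were lower, and in CD-fed mice 0 and 5 were.

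Between diets in vehicle-treated skin, the genes that passed were Lef1 and the transcription factor genes Dlx3, Msx2 and Hoxc13. Dlx3 was 2.40-fold higher in HFD-vehicle than in CD-vehicle (1.26 ± 0.29, adjusted p = 0.0237), Lef1 2.13-fold (1.09 ± 0.27, adjusted p = 0.0361) and Msx2 2.10-fold (1.07 ± 0.25, adjusted p = 0.0259). Hoxc13 was 1.97-fold higher (0.98 ± 0.19, adjusted p = 0.00661), the 1 gene of the 10 whose groups did not overlap, where 1.64% of all genes lay wholly higher. Foxn1 (0.84 ± 0.28, adjusted p = 0.125), Ptch1 (0.52 ± 0.26, adjusted p = 0.355), Wnt5a (0.34 ± 0.13, adjusted p = 0.188), Gli1 (0.15 ± 0.18), Wnt10b (0.08 ± 0.14) and Shh (0.06 ± 0.11) did not pass. Without HFD-vehicle 3 the values were 0.90 for Dlx3 (adjusted p = 0.0279), 0.82 for Lef1 (0.0954), 0.78 for Msx2 (0.0463), 0.78 for Hoxc13 (0.0104) and 0.43 for Foxn1 (0.18). Without CD-vehicle 3, Dlx3 (adjusted p = 0.07), Lef1 (0.115) and Msx2 (0.0909) lost their calls. Hoxc13 was called in each of the 20 fits without 1 array, Dlx3 in 17, Msx2 in 16 and Lef1 in 14.

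Set side by side, with the HFD-vehicle arrays in both, the changes of these 4 genes after IMQ in HFD-fed mice and between diets under vehicle were -1.70 and 1.26 for Dlx3, -1.46 and 1.09 for Lef1, -1.34 and 1.07 for Msx2, and -1.08 and 0.98 for Hoxc13. In IMQ-treated skin the same genes differed between diets by -0.09, -0.07, -0.16 and -0.09, with standard errors between 0.19 and 0.29, in that order. The 95% interval was -0.70 to 0.52 for Dlx3 and -0.48 to 0.31 for Hoxc13.

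Whether IMQ changed these genes differently in the 2 diets was tested by the interaction, the change in HFD-fed mice minus that in CD-fed mice. No member passed (0 of 10, against 0.663% of all genes in either direction, 0.473% above 0 and 0.189% below; 6 of 10 and 15.9% by unadjusted p below 0.05). Hoxc13 came closest at -1.07 ± 0.27, with a 95% interval of -1.62 to -0.51 (adjusted p = 0.0667). It was called without CD-IMQ 2 (adjusted p = 0.036) and without HFD-vehicle 4 (0.026), and not in the other 18 fits that left out 1 array. Dlx3 had -1.35 ± 0.41 (adjusted p = 0.109), Msx2 -1.23 ± 0.36 (0.0957) and Lef1 -1.16 ± 0.39 (0.135). Thus 6 genes were called in HFD-fed and 0 in CD-fed mice, but the difference between diets, as tested, did not pass for any 1 of them.

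The HFD-vehicle mice varied among themselves, and the genes differed in which mouse was highest. HFD-vehicle 3 had the highest value of its group for Dlx3, Lef1, Msx2, Foxn1 and Hoxc13, by between 0.64 and 1.72 above the next array, and for Wnt5a by 0.04. For Gli1 the highest was HFD-vehicle 5, and for Ptch1 it was HFD-vehicle 1. Products of the hair shaft and inner root sheath, 30 measured genes of which hair keratins are the greater part, averaged 8.59 in HFD-vehicle 3. The range of that average was 2.82 to 3.70 in HFD-IMQ, 4.78 to 8.59 in HFD-vehicle, 3.02 to 3.20 in CD-IMQ and 3.06 to 4.17 in CD-vehicle. In HFD-fed mice 16 of the 30 were lower after IMQ and 0 higher (19 without HFD-vehicle 3), and in CD-fed mice 5 were lower (8 without HFD-vehicle 3, 7 without CD-vehicle 3). Between diets under vehicle 16 of the 30 were higher in HFD and 0 lower (18 higher without HFD-vehicle 3, 13 without CD-vehicle 3). In the interaction 9 were called below 0 and 0 above (11 below without HFD-vehicle 3, 6 without CD-vehicle 3), against 0.189% of all genes called below. The melanocyte average ranged over 3.03 to 3.38 in HFD-IMQ, 3.68 to 4.77 in HFD-vehicle, 3.07 to 3.38 in CD-IMQ and 3.29 to 3.68 in CD-vehicle, and 5 of its 11 genes were lower after IMQ in HFD-fed mice (4 without HFD-vehicle 3) and 0 in CD-fed mice. The part of hair product and pigment cell levels in the changes of the 10 genes was not tested.

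Over the 20 arrays the correlation with the hair product average was 0.97 for Dlx3, 0.93 for Msx2, 0.92 for Lef1, 0.91 for Hoxc13, 0.84 for Wnt5a, 0.82 for Foxn1, 0.61 for Ptch1, 0.36 for Wnt10b, 0.33 for Gli1 and 0.23 for Shh. Leaving out HFD-vehicle 3 gave 0.94 for Dlx3, 0.87 for Lef1, 0.84 for Msx2 and Hoxc13, 0.83 for Wnt5a and 0.74 for Ptch1. It gave 0.50 for Gli1, 0.44 for Foxn1, 0.37 for Wnt10b and 0.16 for Shh. These are descriptions over arrays that fall into groups and share RNA with the products. After the group means were subtracted the correlation was 0.93 for Foxn1, 0.90 for Dlx3, 0.80 for Msx2, 0.76 for Lef1 and 0.74 for Hoxc13, against 0.20 for Ptch1 and -0.02 for Gli1. Dropping HFD-vehicle 3 after that subtraction gave 0.77, 0.81, 0.60, 0.64 and 0.52, against 0.43 for Ptch1 and 0.19 for Gli1. The group means subtracted still held that array, so it shifts the deviations of the others in its group together. Its part in these correlations is therefore not fully removed. Wnt5a lay between Hoxc13 and Ptch1, at 0.57 with that array and 0.48 with it dropped in this way. Among the 10 pairs of Lef1, Msx2, Foxn1, Hoxc13 and Dlx3, deviations from the group means correlated at between 0.45 and 0.84. With HFD-vehicle 3 dropped in the same way, and its weight in the group means kept, the range was 0.08 to 0.76. For Gli1 and Ptch1 the correlation was 0.42 both with that array and with it dropped in this way.

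**Figure D4:**
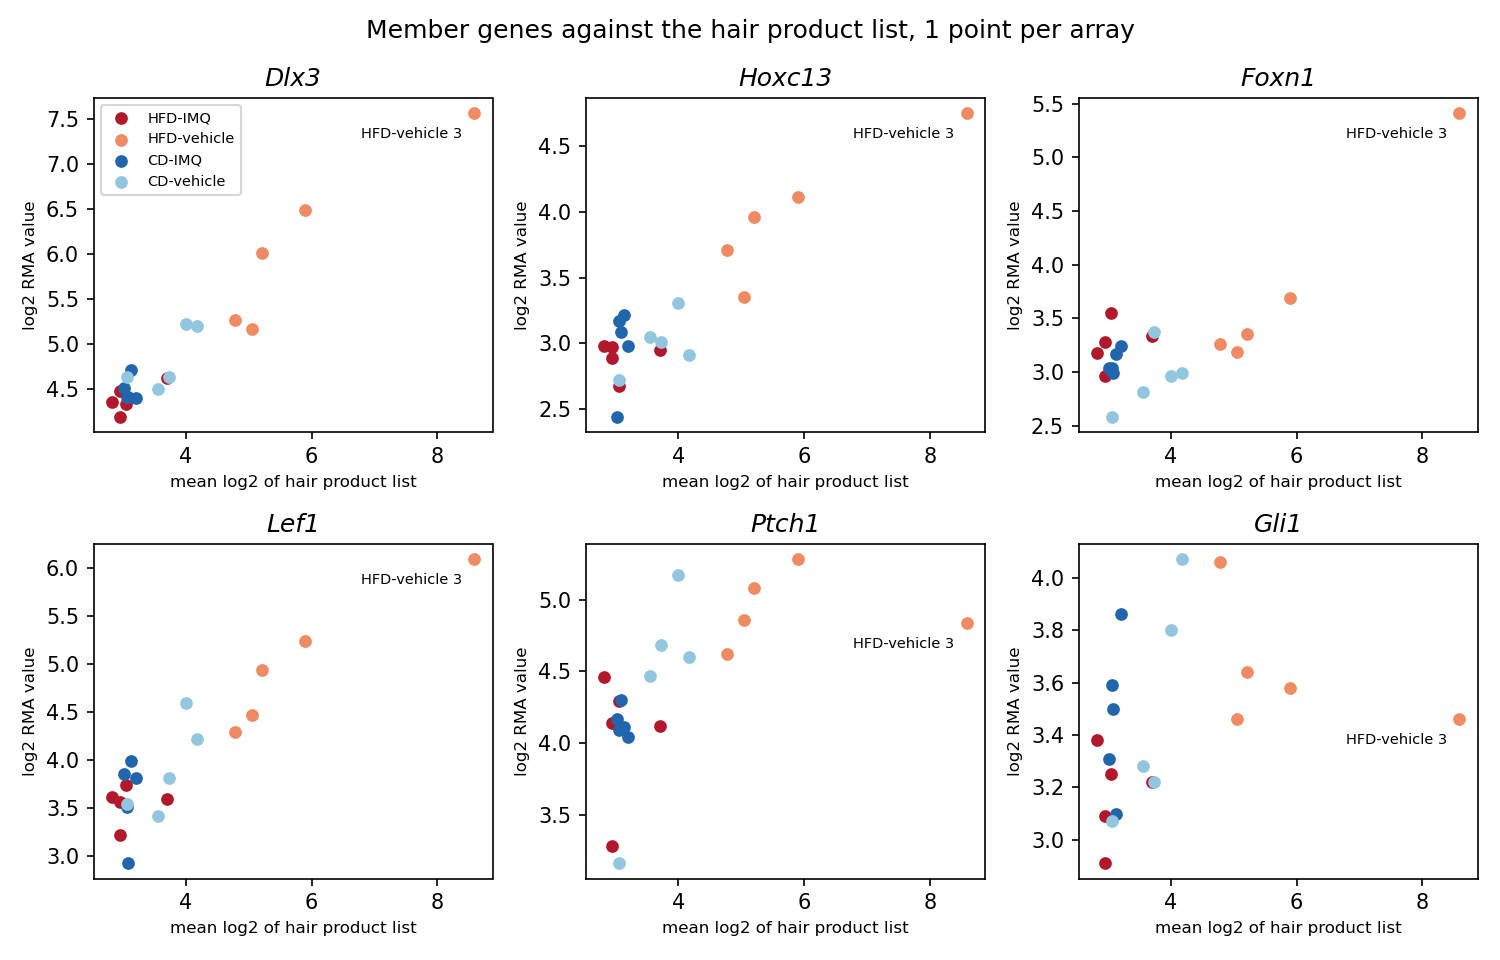
Log2 value of 6 of the genes (vertical) against the mean log2 value of the 30 hair product genes (horizontal) in the 20 arrays, coloured by group. Dlx3, Hoxc13 and Lef1 are high where the hair product mean is high, Foxn1 is high in HFD-vehicle 3 alone, and Gli1 in that array, at 3.46, is within the range of the other groups.

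Cell cycle genes, which dividing matrix and basal epidermal cells both express, were measured beside them. Their average lay between 4.75 and 5.00 in HFD-IMQ, 4.90 and 5.24 in HFD-vehicle, 4.70 and 5.20 in CD-IMQ, and 4.12 and 4.92 in CD-vehicle. In CD-fed mice 7 of 28 were higher after IMQ and 0 lower (5 higher without CD-vehicle 3), and in HFD-fed mice 0 were higher and 1 lower (0 without HFD-vehicle 3). Between diets under vehicle 4 were higher in HFD and 0 lower, or 2 without HFD-vehicle 3 or CD-vehicle 3. Wound keratins, which inflamed epidermis and the outer layers of the follicle express, averaged between 8.48 and 9.52 in HFD-IMQ, 6.59 and 7.29 in HFD-vehicle, 8.27 and 9.30 in CD-IMQ, and 3.77 and 5.40 in CD-vehicle, and all 4 were higher in HFD-vehicle than in CD-vehicle. The part of either list in the changes of the 10 genes was not tested.

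The genes whose pattern over the 20 arrays was most like each of the 10, by Pearson correlation, were taken from 10466 genes. These were the genes above the median of gene means, without the 10 themselves and without predicted, noncoding, olfactory and vomeronasal receptor and clone-named genes. For Dlx3 they were Crnn (0.98), Krt75 (0.98), a companion layer keratin gene, and Lrrc15 (0.96). For Msx2 they were Tenm2 (0.94), Krt75 (0.93) and the BMP and activin pseudoreceptor gene Bambi (0.92), and for Lef1 Lrrc15 (0.93), the pigment gene Tyrp1 (0.92) and the hair keratin gene Krt35 (0.92). For Hoxc13 they were Samd5, Lrrc15 and Ctps at 0.92 each, and for Wnt5a the inner root sheath keratin genes Krt73 (0.89), Krt28 (0.89) and Krt25 (0.88). Foxn1 was most like Foxq1 (0.95), a hair medulla factor gene, and like Pinlyp and Cryba4 at 0.92 each. Without HFD-vehicle 3 these were 0.74 for Foxq1, 0.65 for Pinlyp and 0.64 for Cryba4. Ptch1 was most like Ccnd1 (0.83), Tagln and Col11a1 (0.81 each), Gli1 like Hilpda (0.76), Glis2 and Nab2 (0.73 each), and Wnt10b like Rspo1 (0.81), Homer1 (0.74) and Adam33 (0.66). For Shh, near background throughout, no such genes are named. Each is a description over 20 arrays of 4 groups.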

How the data were processed

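Abdominal skin RNA of 20 mice was hybridised to Affymetrix arrays with biotin-labelled cDNA, per the labels' protocols. The deposited values are log2 signals which, per the submitters' processing notes, come from RMA with affy; versions, scan batches and genome build were not stated there. Of 41345 features 23521 carried 1 symbol, 1814 several and 16010 none. Where several single-symbol features named 1 of the 22180 genes, that with the highest 20-array mean stood for it.

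Groups came from the labels. Whether mice were littermates is not stated. limma 3.58.1 in R 4.3.3 fitted 4 group means with eBayes and 5 contrasts, with calls made at p below 0.05 after Benjamini-Hochberg adjustment over all genes. Two-sided exact permutation tests used 252 rearrangements of 5 against 5. Alternatives covered normalization, dim genes, variance models, array weights, feature choice, a replicate block and each array left out. The tests were tried on simulated data.

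The 10 members and the 23 gene lists (371 genes) were chosen with earlier results of these data known, and are not independent evidence. Named genes were the members, up to 4 called genes per list and comparison by size of change, and the 3 genes most like each member but Shh, which was near background. Tables and figures used Python 3.11.15, numpy 2.4.6, pandas 2.3.3, scipy 1.17.1 and matplotlib 3.10.9.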

Additional observations from a re-analysis of the deposited data

Results flagged for a closer look

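In 4 of the 40 groups of values (10 genes in 4 groups of 5 mice), 1 array lay far from the other 4 by Dixon's criterion, which chance alone meets in about 1 of 20 groups. Foxn1 was 5.41 in HFD-vehicle 3, where the other arrays of the group lay between 3.19 and 3.69. Hoxc13 was 2.68 in HFD-IMQ 3, below 2.89 to 2.98 in the others. Wnt10b was 3.88 in CD-IMQ 3, above 3.28 to 3.45 in the others. Wnt5a was 3.13 in CD-IMQ 1, below 3.49 to 3.60 in the others.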

How the results depend on the processing

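No call on the 10 genes reversed under any alternative, but several were lost. The number of genes called when 1 array was left out ranged from 990 to 1370 for IMQ in HFD-fed mice (5 to 6 of the 10), 1741 to 2636 for IMQ in CD-fed mice (0 of the 10), 231 to 574 between diets under vehicle (1 to 4), 0 to 20 between diets under IMQ (0), and 57 to 198 for the interaction (0 to 1). Between diets under vehicle, 483 genes were called in the fit reported, 137 with only the 2 groups compared (0 of the 10) and 217 without HFD-vehicle 3 and CD-vehicle 3 together (1 of the 10), an alternative chosen after seeing the data. Among genes above the median gene mean 2 of the 10 were called there, since only 4 members were tested, and the interaction had 241 calls, against 147. Between diets under IMQ 1 gene was called, against 0, with that filter, with trended and robust variances, and without both arrays. Ptch1 in HFD-fed mice was not called after centring (adjusted p = 0.0644) or with trended and robust variances (0.0566), nor Lef1 between diets under vehicle with the latter (0.0516). Changes that turned sign when 1 array was left out were all uncalled: after IMQ in CD-fed mice Gli1 (-0.12 to 0.13), Hoxc13 (-0.09 to 0.11), Wnt10b (-0.19 to 0.01) and Msx2 (-0.21 to 0.05), Wnt10b between diets under vehicle (-0.02 to 0.18), and Lef1 (-0.25 to 0.02) and Ptch1 (-0.19 to 0.11) between diets under IMQ. The causes were not tested. Of 30 pairs of arrays with the same replicate number, 4 correlated above 0.1 in deviations from group means (range -0.217 to 0.320). Pairs with different numbers were not compared, so whether the numbers pair the arrays cannot be told from this. With the replicate block Lef1 between diets under vehicle had an adjusted p of 0.0538 and IMQ called 2247 genes in CD-fed mice. Signals near background limit the size of changes in Shh, Msx2 and Hoxc13.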

Other observations

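Genes listed for other compartments of the follicle were called as well. Over all genes 2.24% were called lower and 3.65% higher in HFD-fed mice, and 7.02% lower and 3.91% higher in CD-fed mice. Of 13 bulge stem cell genes 8 were lower and 3 higher after IMQ in HFD-fed mice by limma, and 4 were lower and 1 higher in CD-fed mice. Of these, Sox9, Foxc1, Lhx2, Lgr5, Fgf18 and Nfatc1 in HFD-fed mice and Lgr5 in CD-fed mice are also counted in lists above. Krt15, a keratin gene of bulge and basal cells, averaged 5.79 in HFD-IMQ and 7.46 in HFD-vehicle (-1.67 ± 0.24), and the matrix gene Tnc averaged 6.55 in HFD-IMQ and 5.18 in HFD-vehicle (1.38 ± 0.23). Both were called in CD-fed mice too, Krt15 lower (-1.01 ± 0.24) and Tnc higher (2.23 ± 0.23). Of 17 sebaceous gland genes 8 were lower and 0 higher in HFD-fed mice, and 2 were lower and 2 higher in CD-fed mice. The 2 higher were Elovl3 and Prdm1, and Prdm1 is also counted above. Mc5r, which encodes the melanocortin receptor of sebocytes, averaged 4.30 in HFD-IMQ and 5.88 in HFD-vehicle (-1.58 ± 0.25), and the desaturase gene Scd3 averaged 5.00 in HFD-IMQ and 7.64 in HFD-vehicle (-2.64 ± 0.34). Scd3 was called lower in CD-fed mice too (-2.16 ± 0.34). Without HFD-vehicle 3 the counts lower in HFD-fed mice were 7 of 13 and 7 of 17. The part of cells outside the follicle in these counts was not tested.

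One further array feature carries the symbol Shh together with a second symbol, so its signal cannot be assigned to either gene and it was not used above. Its values were 3.07, 3.21, 2.69, 2.19 and 2.23 in HFD-IMQ, against 4.37, 4.69, 3.89, 3.65 and 4.10 in HFD-vehicle, and the groups did not overlap. In CD-IMQ they were 3.04, 3.16, 3.04, 2.93 and 2.67, against 4.09, 4.30, 2.37, 3.22 and 3.21 in CD-vehicle. Over all 41345 features limma gave a change after IMQ of -1.46 ± 0.29 in HFD-fed mice (adjusted p = 0.00656) and of -0.47 ± 0.29 in CD-fed mice (adjusted p = 0.408). It was 0.70 ± 0.29 higher in HFD-vehicle than in CD-vehicle (adjusted p = 0.331). The single-symbol Shh feature, near background in every array, showed neither difference. The feature was singled out after its values were seen.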
